A study of Mus musculus and Acomys cahirinus with 2 samples.

Results

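The proteasome is the protease that degrades ubiquitin-tagged proteins, and its subunit genes were followed here in ear skin of 2 rodents. The members were all genes whose symbol, case ignored, starts with Psma to Psmg and a digit and stands in the gene lists of both libraries: 46 of the 15710 symbols the lists share. Of these, 43 encode subunits, assembly chaperones or regulators and are called the core members, 2 (Psmb9 and Psmb10) belong to the immunoproteasome, and 1 (Psmc3ip) carries a subunit's name without encoding one. Another 4 matching symbols, Psmb8, Psme1, Psme2 and Psme2b, stood in the Mus list alone, so the immunoproteasome set of 5 genes could be followed whole in Mus only.

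Each species gave 1 library of dissociated adult ear skin, labelled day 0: Mus musculus, the house mouse, and Acomys cahirinus, a spiny mouse. The labels name no strain, sex, treatment or number of animals, and the series' title calls the tissue injured. With 1 library a species, the difference between species, between animals and between library preparations cannot be told apart, and no test across samples exists. Intervals below are 95% counting intervals on unique molecular identifiers (UMIs, 1 per captured transcript) and cover counting error only. Intervals on shares of cells cover only the sampling of cells within a library.

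The proteasome's core particle is a barrel of stacked rings: alpha subunits form the gated outer rings, and beta subunits form the inner rings that hold the 3 proteolytic sites. A regulatory particle of ATPase and non-ATPase subunits recognises, unfolds and feeds in the substrate. In immune cells, and in many other cells exposed to interferon, Psmb8, Psmb9 and Psmb10 replace the catalytic subunits encoded by Psmb5, Psmb6 and Psmb7, and Psme1 and Psme2 form an alternative cap. This immunoproteasome is known for making peptides for presentation on class I molecules, a task of endothelium and immune cells as well as of keratinocytes.

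The sequences upstream of Psmb9 and Psmb10 are shown because these 2 members were at least 2-fold higher in endothelial-like than in epithelial-like cells, and that of Psmb5 because it was among the core members farthest apart between the libraries. They are the 250 bases before the RefSeq gene start of the mouse (GRCm38.p6), 5′ to 3′ on the gene's strand, with any match to the motifs searched in capitals. No Acomys sequence was used here.
Psmb9, chr17:34187331-34187580, minus strand: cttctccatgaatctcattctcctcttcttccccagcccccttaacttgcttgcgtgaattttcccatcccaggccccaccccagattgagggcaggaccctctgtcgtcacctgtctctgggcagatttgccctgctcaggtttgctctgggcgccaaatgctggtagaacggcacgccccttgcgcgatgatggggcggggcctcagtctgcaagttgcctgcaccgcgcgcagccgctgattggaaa
Psmb10, chr8:105938393-105938642, minus strand: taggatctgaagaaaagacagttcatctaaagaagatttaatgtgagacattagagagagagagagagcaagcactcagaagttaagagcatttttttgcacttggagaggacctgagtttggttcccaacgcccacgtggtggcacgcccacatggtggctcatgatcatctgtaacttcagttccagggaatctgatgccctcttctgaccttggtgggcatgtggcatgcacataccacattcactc
Psmb5, chr14:54617996-54618245, minus strand: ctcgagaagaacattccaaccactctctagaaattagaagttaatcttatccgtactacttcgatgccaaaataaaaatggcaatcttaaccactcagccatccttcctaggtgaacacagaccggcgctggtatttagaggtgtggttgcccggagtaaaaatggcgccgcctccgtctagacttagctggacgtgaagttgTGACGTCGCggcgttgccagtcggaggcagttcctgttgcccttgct

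Of 3 motifs searched on both strands, the interferon-stimulated response element (GAAA, any 2 bases, GAAA) and the gamma-activated site TTCNNNGAA matched neither the Psmb9 nor the Psmb10 window. The antioxidant response element TGACNNNGC, a motif of the Nfe2l1 and Nfe2l2 factors, matched once in the Psmb5 window, 47 bases before the start. It stood in 5 of the 37 windows of the 35 core members found in the table (13.5%), those of Psmb5, Psmb6, Psmc6, Psmd12 and Psmd9, against 10.2% of all 32851 windows. The response element for interferon stood in 3 of the 37 core windows (8.11%) against 2.98% of all windows, and the gamma-activated site in 1 (2.70%) against 7.02%. Among the 5 immunoproteasome genes, Psmb8 alone held a gamma-activated site match, and none held another of these motifs. The genes are spread over the genome: the 43 core members lie on 16 chromosomes, whereas Psmb8 and Psmb9 neighbour each other on chromosome 17 and Psme1 and Psme2 on chromosome 14.

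The Mus library held 6556 cells with a median of 11784 UMIs and the Acomys library 4603 cells with a median of 7557, and 31 cell barcodes occurred in both. Cells were clustered within each library and classed by marker genes: 5933 Mus and 4222 Acomys cells were epithelial-like, 43 and 100 endothelial-like, and 75 and 92 other. The other cells were not alike: 53 fibroblast-like and 22 myeloid cell-like in Mus, and 37 T cell-like, 20 melanocyte-like and 35 in a cluster with equal numbers of fibroblast and chondrocyte markers in Acomys. The T cell-like cells also held markers of other immune cells. Summed levels there were 5421 CPM for T cell, 8260 CPM for myeloid and 7187 CPM for Langerhans cell markers. The myeloid and Langerhans lists share Cd74 and Tyrobp, and whether these cells are a mixture was not tested. The remaining 505 and 189 cells were unnamed. Levels are UMIs per 1000000 UMIs of the shared symbols (CPM), summed over the cells of a class. Summed levels of 12 blood endothelium markers were 11202 CPM in Mus and 5320 CPM in Acomys endothelial-like cells, against 25.4 and 47.7 CPM in epithelial-like cells. Summed levels of 18 epithelial markers in endothelial-like cells were 13827 CPM in Mus and 30049 CPM in Acomys, against 67308 and 94252 CPM in epithelial-like cells. The part of epithelial RNA in the endothelial values was not tested.

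In epithelial-like cells the core proteasome genes stood close to each other in the 2 species. Of the 43 core members, 41 averaged at least 10 CPM over the libraries, and 36 of these 41 differed by less than 2-fold, against 53.7% of all 6491 genes measured and 58.1% of the 4523 genes within the range of the core levels. At least 2-fold higher in Acomys were 3 members (background 13.8% of genes), and at least 2-fold lower were 2 (background 32.5% of genes). The median log2 ratio of Acomys to Mus was 0.11 over core members and -0.29 over all genes. Summed over the core members, the level was 12033 CPM in Mus and 14000 CPM in Acomys, a ratio of 1.163 (interval 1.159 to 1.168). The 2 members below the limit of 10 CPM were Psma8, an alpha subunit of germ cells with 0 UMIs in both (upper bounds 0.0699 CPM in Mus and 0.147 CPM in Acomys), and Psmb11, the beta subunit of thymic epithelium, with 1 UMI in Mus and 0 in Acomys.

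Among the genes of the core particle, all 7 measured alpha subunit genes lay within 2-fold. Psma7 had the highest ratio of the ring, with 676 CPM in Mus and 1215 CPM in Acomys epithelial-like cells (ratio 1.80, interval 1.77 to 1.82). Psma1 had the lowest, with 447 CPM in Mus and 337 CPM in Acomys (ratio 0.755). The ring as a whole summed to 3288 CPM in Mus and 3976 CPM in Acomys, so the 2 extremes pulled in opposite directions within a narrow span.

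Of the 7 constitutive beta subunit genes, Psmb5 alone passed 2-fold. Psmb5, which encodes the chymotrypsin-like catalytic subunit, stood at 476 CPM in Mus and 1265 CPM in Acomys epithelial-like cells (ratio 2.66, interval 2.62 to 2.70). The other catalytic genes differed less: Psmb6 (caspase-like activity) had 609 and 627 CPM, a ratio of 1.03, and Psmb7 (trypsin-like activity) had 346 and 430 CPM, a ratio of 1.24. Psmb1, a structural subunit, was the lowest of the ring with 952 CPM in Mus and 670 CPM in Acomys (ratio 0.704). The excess of Psmb5 was present in every broad class: 373 CPM in Mus and 1040 CPM in Acomys endothelial-like cells, and 397 and 908 CPM in other cells.

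In the regulatory particle, Psmc4 was the 1 gene of 6 ATPases and 11 non-ATPase subunits past 2-fold. Psmc4, an ATPase of the base that unfolds substrates, had 228 CPM in Mus and 107 CPM in Acomys epithelial-like cells (ratio 0.469, interval 0.450 to 0.490). Psmc1, another ATPase, had the highest ratio of that ring, 1.37. Among the non-ATPase subunits the span ran from Psmd11 (153 CPM in Mus and 79.4 CPM in Acomys, ratio 0.520) to Psmd14, the deubiquitinase of the lid (168 and 272 CPM, ratio 1.62).

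The regulators and chaperones held the widest spread. Psme3, which encodes a nuclear activator cap, had 76.3 CPM in Mus and 9.26 CPM in Acomys epithelial-like cells (ratio 0.121, interval 0.106 to 0.139), the largest difference of any core member there. It was low in Acomys in each epithelial class compared, with ratios of 0.121 in basal and 0.118 in suprabasal keratinocyte-like cells and 0.152 in hair follicle-like cells. Psmf1, a proteasome inhibitor, had 46.7 CPM in Mus and 115 CPM in Acomys (ratio 2.45). Psmg1, a chaperone of alpha ring assembly, had 73.5 and 208 CPM (ratio 2.83), whereas the chaperone gene Psmd5 had 59.1 and 45.0 CPM (ratio 0.762). Psmc3ip, a recombination factor and no subunit, had 21.1 and 4.97 CPM (ratio 0.236).

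The libraries were counted on different gene models, so a species ratio of a single gene also holds any difference in how much of its transcript end the model covers. That part was not tested. Under CPM over all genes of each list the median ratio of genes of at least 50 CPM shifted by 0.20 on the log2 scale relative to CPM over shared genes, and the lower set then fell from 2 members to 1, since the log2 ratio of Psmc4 went from -1.09 to -0.98.

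**Figure D1:**
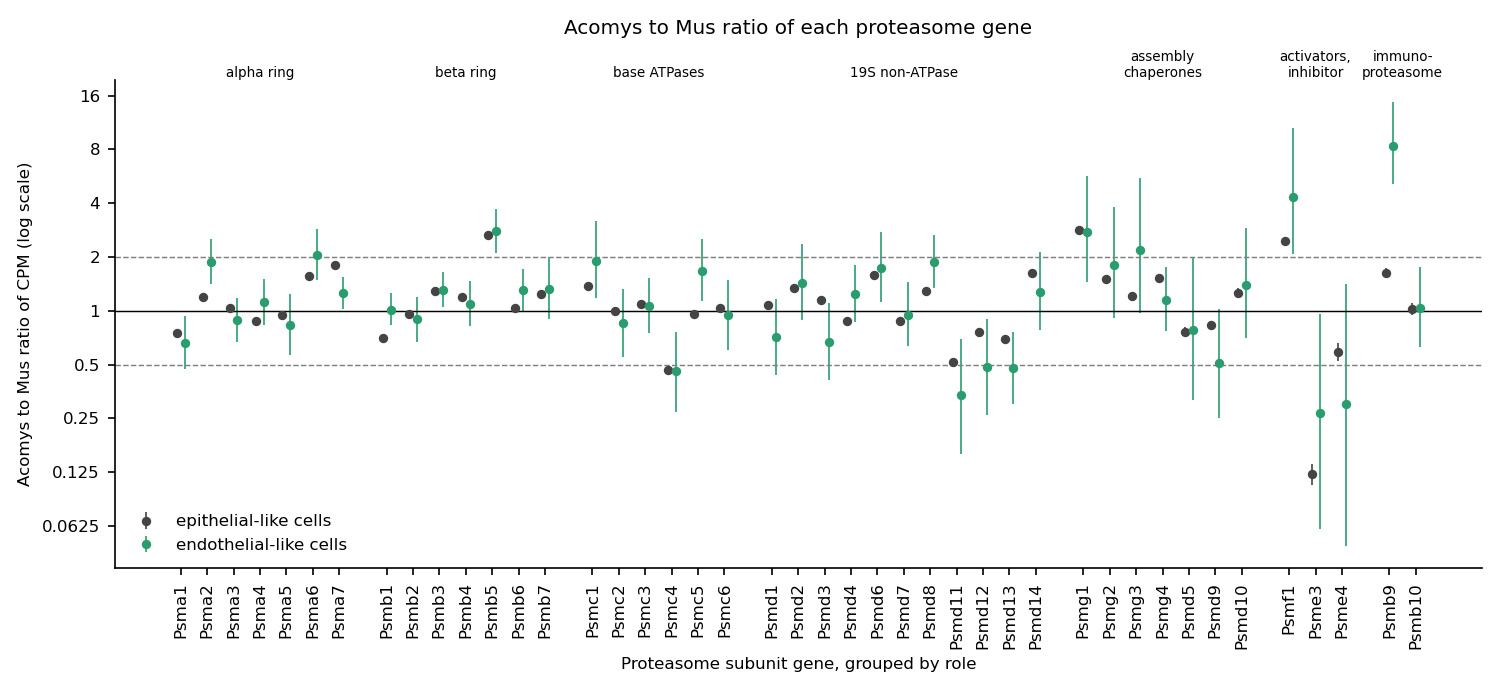
Acomys to Mus ratio of CPM (log axis) for each core and immunoproteasome gene with a mean of at least 10 CPM, in epithelial-like (dark) and endothelial-like (green) cells, with 95% counting intervals as bars and dashed lines at 2-fold. Most genes lie between the dashed lines, Psme3 lies lowest in epithelial-like cells at 0.121, and Psmb9 lies highest in endothelial-like cells at 8.38.

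Between endothelial-like and epithelial-like cells of the same library, where 1 gene model serves both sides, no core member passed 2-fold. In Mus, 0 of 41 core members reached a doubling in endothelial-like cells (background 28.3% of genes) and 0 a halving (background 12.2%). In Acomys both counts were again 0 of 41, against a background of 19% higher and 8.61% lower. The summed core level was 11066 CPM in Mus endothelial-like cells, 0.920 times (0.878 to 0.962) that of epithelial-like cells, and 13379 CPM in Acomys, 0.956 times (0.925 to 0.987). Single members ranged from -0.60 to 0.55 on the log2 scale in Mus and from -0.72 to 0.86 in Acomys. Taking cells down to 1000 UMIs raised the endothelial-like cells to 332 in Mus and 474 in Acomys. Both counts were again 0 in each library, of 41 measured members in Mus and 40 in Acomys. The share of all genes is not given for that minimum.

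The species ratios of endothelial-like cells resembled the epithelial ones for the genes farthest apart there. At least 2-fold higher in Acomys were 5 of 41 core members (background 16.5%), Psma6, Psmb5, Psmf1, Psmg1 and Psmg3, and at least 2-fold lower were 6 (background 39%), Psmc4, Psmd11, Psmd12, Psmd13, Psme3 and Psme4. Psmf1 stood at 47.4 CPM in Mus and 207 CPM in Acomys (8 and 58 UMIs, ratio 4.36, interval 2.07 to 10.6). Down to 1000 UMIs, 4 of 41 measured members were higher (Psmb5, Psmf1, Psmg1 and Psmg3) and 4 lower (Psmd11, Psmd13, Psme3 and Psme4). No share of all genes is given for that minimum, so these counts cannot be set against one.

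Psmb9 and Psmb10 were the members at least 2-fold higher in endothelial-like than in pooled epithelial-like cells, Psmb9 by a larger factor in Acomys. Psmb9, which encodes the inducible counterpart of the Psmb6 subunit, had 49.0 CPM in epithelial-like and 101 CPM in endothelial-like cells of Mus (2586 and 17 UMIs), a ratio of 2.05 (1.19 to 3.30). This Mus call did not hold under 5 of the alternatives, where the ratio (2.11 with 0.5 counts added) was 1.65 without doublet removal, 1.66 with a minimum of 1000 UMIs, 1.88 centred on the median ratio, 1.92 with a mitochondrial limit of 10% and 1.97 without ribosomal protein genes. Nor was the endothelial-like cluster the highest of the Mus clusters: a hair follicle-like cluster of 70 cells had 122 CPM (87.7 to 165) and the cycling cluster led by Top2a 109 CPM (99.1 to 120), against 101 CPM (58.7 to 161). In Acomys the endothelial-like cluster was the highest for Psmb9. There it had 80.0 CPM in epithelial-like and 844 CPM in endothelial-like cells (2013 and 237 UMIs), a ratio of 10.5 (9.18 to 12.1). The Acomys ratio was 5.13 times the Mus ratio, with an approximate counting interval of 3.13 to 8.43. Between libraries, Psmb9 was 1.63-fold (1.54 to 1.73) higher in Acomys epithelial-like cells and 8.38-fold (5.12 to 14.6) higher in Acomys endothelial-like cells. Within the epithelium the species ratio was 1.25 in basal and 2.37 in suprabasal keratinocyte-like cells, and between these 2 classes of a library Psmb9 and Psmb10 summed stood at a suprabasal to basal ratio of 0.818 in Mus and 1.33 in Acomys. The core sum had ratios of 1.01 and 0.946 there.

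Psmb10, the inducible counterpart of Psmb7, was higher in endothelial-like cells of both libraries by nearly the same factor. It had 42.3 CPM in epithelial-like and 154 CPM in endothelial-like cells of Mus (26 endothelial UMIs, ratio 3.64, 2.37 to 5.35), and 43.3 and 160 CPM in Acomys (45 endothelial UMIs, ratio 3.71, 2.69 to 4.99). The Acomys ratio was 1.02 times the Mus ratio (0.625 to 1.66). At the UMI minimum used for these values, the endothelial-like cluster had the highest Psmb10 of all clusters in each library. No Acomys cluster was named myeloid cell-like there. At the lower UMI minimum the ranking did not hold in Acomys. A myeloid cell-like cluster then had 440 CPM (265 to 688, on 19 UMIs). The highest Acomys endothelial-like cluster had 185 CPM (147 to 230).

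Cell by cell, Psmb9 was spread over the Acomys endothelial-like cells and was not the product of a few. Each cell was thinned to 2500 UMIs, since depth differed (median 5554 UMIs in Mus and 3430 in Acomys endothelial-like cells). Then 76 of 100 Acomys endothelial-like cells held a Psmb9 UMI (76.0%, exact binomial interval 66.4% to 84.0%). In Mus 7 of 43 did (16.3%, 6.81% to 30.7%). These intervals take the cells of a library as units, and cells of the same library are not replicates of a species. They cannot tell a species difference from a difference between animals or library preparations. Without thinning the shares were 85.0% and 34.9%. In epithelial-like cells the thinned shares were 11.4% in Acomys and 7.18% in Mus, with median depths of 7813 and 12314 UMIs. The single cell richest in Psmb9 gave 4.22% of the Acomys endothelial UMIs of the gene. For Psmb10 the thinned endothelial shares were 27.0% in Acomys and 23.3% in Mus.

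With cells of at least 1000 UMIs the gap between the endothelial-like classes widened, and the classes also changed in mix. At the higher minimum each class was 1 cluster with blood endothelium markers. Psmb9 had 80.6 CPM in 332 Mus endothelial-like cells (51 UMIs) and 1084 CPM in 474 Acomys ones (705 UMIs), 13.4-fold apart (10.1 to 18.2), while Psmb10 had 169 and 174 CPM. The endothelial to epithelial ratio of Psmb9 was then 1.64 in Mus and 13.4 in Acomys, with 49.2 and 80.7 CPM in epithelial-like cells. These values pool endothelial-like clusters, given next, whose proportions differed between the libraries. The part of that mix in them was not tested. Each library held a cluster led by Fabp4, Ackr1 and Vwf, genes of vein and capillary endothelium: Psmb9 stood at 105 CPM in the 186 Mus cells and at 1136 CPM in the 295 Acomys cells. Each also held an endothelial-like cluster with Mmrn1, a gene of lymphatic vessels, among its leading genes: Psmb9 had 33.0 CPM in the 146 Mus cells (7 UMIs) and 304 CPM in the 60 Acomys cells (21 UMIs). A further Acomys cluster of 119 cells, led by Clec3b, Tm4sf1 and Sox17, had 1304 CPM. The difference was thus present in each kind of endothelial-like cluster that both libraries held.

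**Figure D2:**
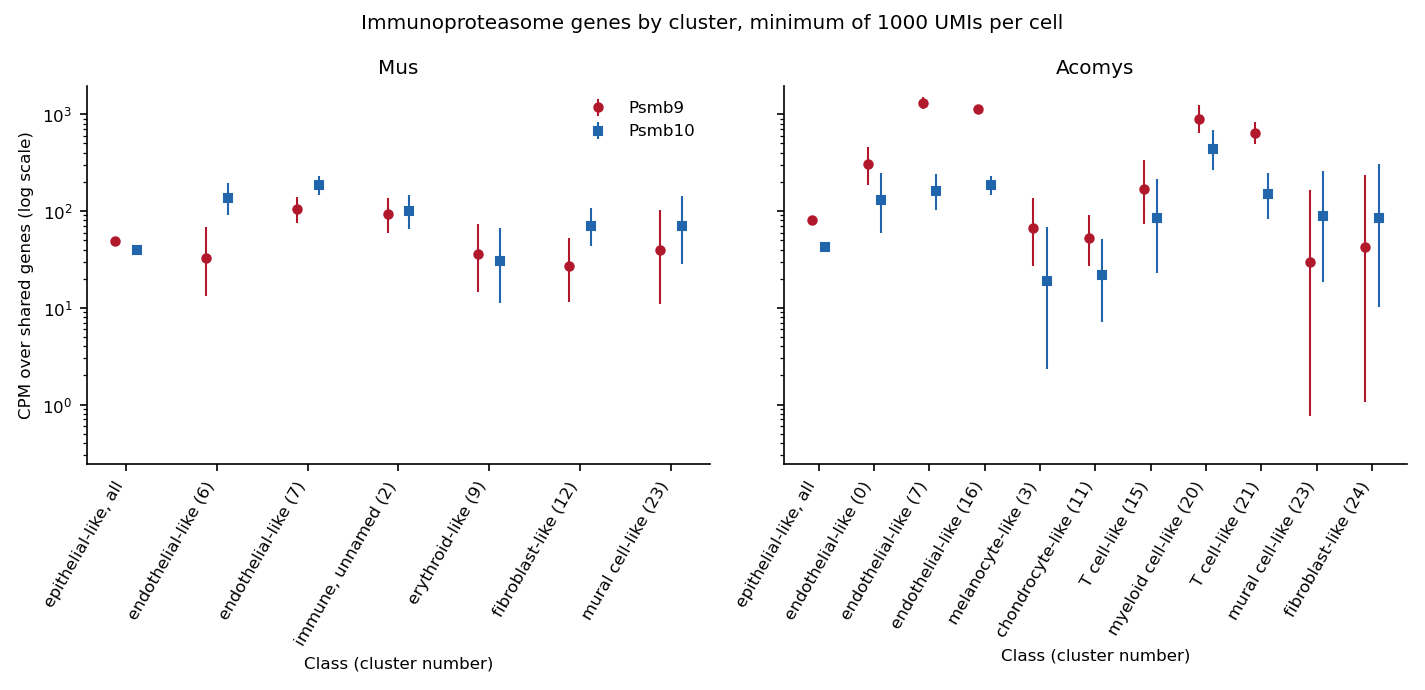
CPM over shared genes (log axis) of Psmb9 (red circles) and Psmb10 (blue squares) in all epithelial-like cells and in each endothelial-like and other cluster, for cells of at least 1000 UMIs, with 95% counting intervals as bars. In Acomys, Psmb9 reaches 1304 CPM in an endothelial-like cluster, and in Mus it does not pass 105 CPM in any endothelial-like or other cluster plotted.

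Outside endothelium, Psmb9 was high in Acomys immune cells. At the 1000 UMI minimum it had 647 CPM (65 UMIs) in the 64 cells of the larger T cell-like cluster, 169 CPM (8 UMIs) in the 25 cells of the smaller one, and 904 CPM (39 UMIs) in 30 myeloid cell-like cells. The Mus immune cells of that setting formed 1 unnamed cluster of 104 cells that had T cell markers but was led by Cd52, Fcer1g and H2-Aa, which had 92.5 CPM (24 UMIs). Stromal clusters had lower values than the immune clusters of their library, on few UMIs. Psmb9 had 26.9 CPM in Mus fibroblast-like (8 UMIs) and 52.5 CPM in Acomys chondrocyte-like cells (12 UMIs). Mus mural cell-like cells had 39.9 CPM (4 UMIs), with an interval of 10.9 to 102 that takes in the Mus immune value. The Acomys mural cell-like and fibroblast-like clusters held 1 UMI each. Psmb10 reached 440 CPM in Acomys myeloid cell-like cells (19 UMIs), the highest of the clusters plotted.

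The balance between inducible and constitutive counterparts followed. Of the UMIs of Psmb9 and Psmb6 together, Psmb9 made up 7.45% in Mus and 11.3% in Acomys epithelial-like cells, and 16.8% (10.1% to 25.6%) and 56.6% (51.7% to 61.4%) in endothelial-like cells. Psmb10 made up 40.6% (28.5% to 53.6%) in Mus and 34.9% (26.7% to 43.8%) in Acomys of the endothelial UMIs of Psmb10 and Psmb7, against 10.9% and 9.14% in epithelial-like cells. These are shares of counted transcripts and not of assembled particles.

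The genes found in the Mus list alone behaved differently from each other. Psmb8, the inducible counterpart of Psmb5, had 107 CPM in epithelial-like and 219 CPM in endothelial-like cells of Mus (37 UMIs, ratio 2.04, 1.43 to 2.82) and 358 CPM in myeloid cell-like cells (53 UMIs). The cap genes did not pass 2-fold: Psme1 had 231 and 249 CPM, a ratio of 1.08, and Psme2 had 447 and 338 CPM, a ratio of 0.755. Psme2b had 4 endothelial UMIs.

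Psmb9 lies beside Psmb8 and Tap1, a peptide transporter gene, in the mouse genome (Psmb9 at chr17:34182030-34187330 in GRCm38.p6), and neither neighbour's symbol was in the Acomys list. Whether the Acomys model of Psmb9 takes in transcripts of a neighbour was not tested. In Mus, the 3 genes summed to 221 CPM in epithelial-like and 338 CPM in endothelial-like cells, a ratio of 1.53 (1.16 to 1.98). They did not go the same way. Psmb9 and Psmb8 had ratios of 2.05 and 2.04, whereas Tap1 had 64.2 and 17.8 CPM (3 endothelial UMIs, ratio 0.277, 0.0571 to 0.810). Mus levels cannot show how the neighbours stand in Acomys. In droplets of 1 to 10 UMIs, which hold free RNA, Psmb9 stood at 57.7 CPM in Mus and 119 CPM in Acomys. With a free RNA profile subtracted, the Acomys endothelial to epithelial ratio of Psmb9 was 12.2. The part of free RNA in the endothelial Psmb9 level was not tested. Summed T cell markers in endothelial-like cells were 59.2 CPM in Mus and 46.3 CPM in Acomys, and summed myeloid markers 82.9 and 35.6 CPM, on few UMIs. Of 9 markers in each of these lists, 7 and 4 of the T cell list and 6 and 6 of the myeloid list were at 0 in Mus and Acomys endothelial-like cells, but some of these, such as Trac, were also at 0 in the immune cells of the same library. The part of immune cell RNA in the endothelial Psmb9 level was not tested.

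**Figure D3:**
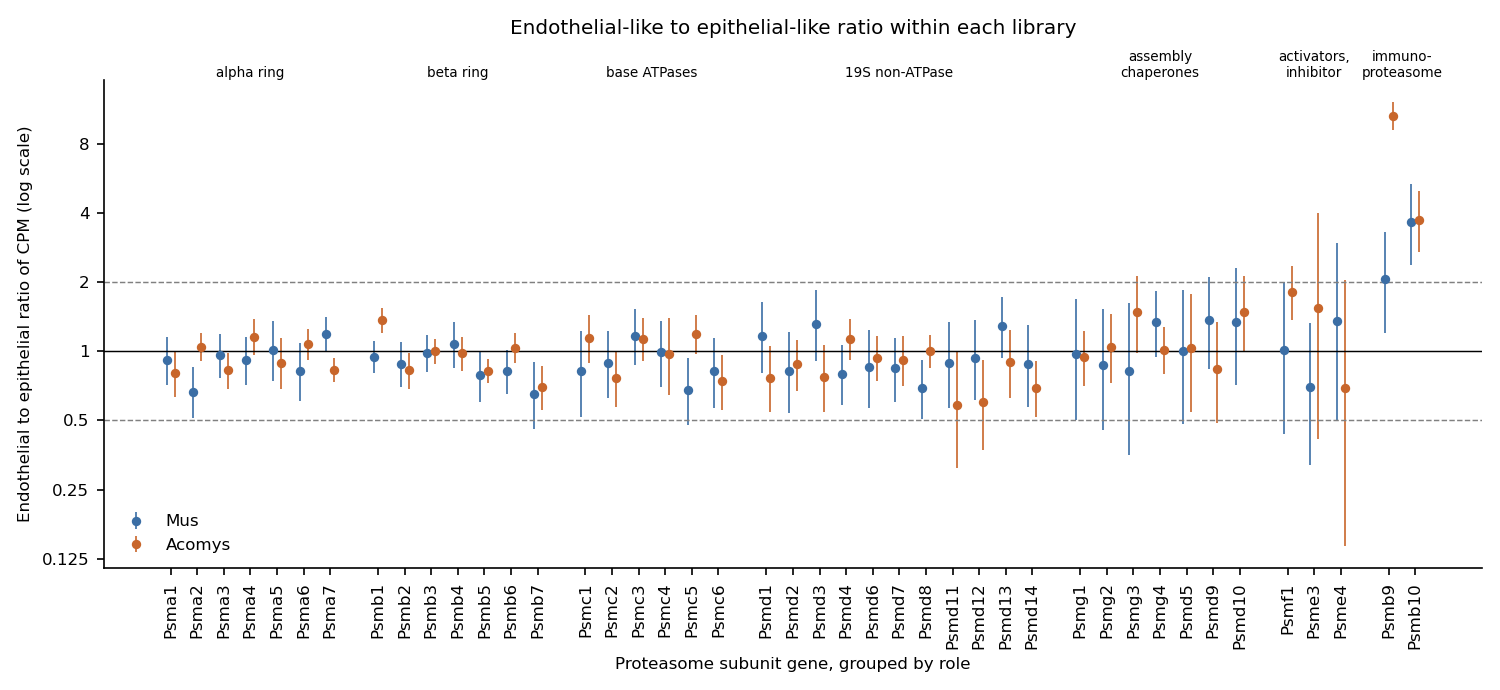
Endothelial-like to epithelial-like ratio of CPM (log axis) of each core and immunoproteasome gene within the Mus (blue) and Acomys (orange) library, with 95% counting intervals as bars and dashed lines at 2-fold. All core genes lie between the dashed lines, Psmb10 lies near 3.64 and 3.71, and Psmb9 near 2.05 in Mus and 10.5 in Acomys.

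Other genes of antigen processing and interferon response were read beside Psmb9 from lists drawn up for this comparison. Of the interferon list, 7 of 7 measured genes in Mus and 6 of 8 in Acomys were at least 2-fold higher in endothelial-like cells. None was lower, and of all genes 28.3% and 19% were higher. The median log2 ratio was 3.43 and 4.70 against 0.32 and 0.19 over all genes. A gene counted as measured if its mean over the 2 classes reached 10 CPM. Genes such as Isg15 in Acomys passed through their endothelial level alone. The filter thus favoured genes high in endothelial-like cells, and these counts and medians cannot describe the whole list. Isg15, a ubiquitin-like protein induced by interferon, had 4.42 CPM in epithelial-like and 23.7 CPM in endothelial-like cells of Mus (4 endothelial UMIs), and 0.875 and 164 CPM in Acomys (46 UMIs). Gbp2, an interferon-induced GTPase, had 29.6 CPM in Mus (5 UMIs) and 110 CPM in Acomys endothelial-like cells (31 UMIs). Of the class I peptide loading list, 2 of 7 genes in Mus and 2 of 5 in Acomys were at least 2-fold higher in endothelial-like cells, near the 28.3% and 19% of all genes, with medians of 0.47 and 0.43. In endothelial-like cells, 0 of 7 genes of this list were at least 2-fold higher in Acomys than in Mus (16.5% of all genes). At least 2-fold lower were 4 (39% of all genes), with a median log2 ratio of -1.07 (all genes -0.43). In epithelial-like cells 0 of 6 were higher (13.8% of all genes) and 3 lower (32.5%), with a median of -0.88 (all genes -0.29). Of the 12 shared genes of the interferon list, 8 were measured between species in endothelial-like and 3 in epithelial-like cells. At least 2-fold higher in Acomys were 5 of 8 (16.5% of all genes) and 3 of 3 (13.8%). None was lower (39% and 32.5% of all genes), and the medians were 1.65 and 2.29. The filter took the mean over the libraries, so a gene could pass through its Acomys level alone. These counts and medians therefore cannot describe the whole list either. B2m, the light chain of class I molecules, had 1246 and 1410 CPM in the 2 Mus classes (ratio 1.13) and 756 and 2361 CPM in the 2 Acomys classes (ratio 3.12).

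Other genes of the pathway were read from further lists. In epithelial-like cells, 0 of 7 measured proteasome-bound proteins outside the family were at least 2-fold higher in Acomys (13.8% of all genes) and 2 were lower (32.5% of all genes): Akirin2, an adaptor for nuclear import of the proteasome, had a ratio of 0.167 from 72.0 CPM in Mus, and Zfand5, a proteasome activator, had 66.0 and 18.8 CPM. Of 6 measured genes that control proteasome expression, Nfe2l2 was higher (101 CPM in Mus and 312 CPM in Acomys), and Ddi2, the protease that activates Nfe2l1, was lower (38.1 and 6.60 CPM), as was Mafg (52.7 and 17.5 CPM). Neither of 2 measured ubiquitin and E1 genes passed 2-fold. The lists of bound proteins, control genes and ubiquitin genes had median log2 ratios of 0.11, -0.58 and 0.18 against -0.29 over all genes. Between endothelial-like and epithelial-like cells the lists of partners held 1 to 2 genes past 2-fold in Mus, apart from the ubiquitin list with 0. In Acomys they held Nfe2l1 alone, at 2.33-fold (21 UMIs). Of all genes, 28.3% were at least 2-fold higher and 12.2% lower in Mus endothelial-like cells, and 19% and 8.61% in Acomys. Of 7 measured genes of the dissociation and heat response list, Hsp90aa1 alone passed 2-fold between species in epithelial-like cells (209 and 522 CPM). Of all genes, 13.8% were higher and 32.5% lower there.

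Between clusters of the epithelium the core level varied more than between classes. In each library the highest summed core level was in the cluster with the highest Cidea and Elovl3, lipid genes of sebocytes: 18974 CPM in 89 Mus cells and 24611 CPM in 38 Acomys cells, against a median over epithelial-like clusters of 11702 and 13810 CPM. Another Acomys cluster with sebocyte markers (272 cells) had 15215 CPM, and over both Acomys clusters the level was 16622 CPM, so the Acomys to Mus ratio of sebocyte-like cells was 1.30 with the 38-cell cluster alone and 0.876 with both. Relative to the other epithelial-like cells this was 1.59-fold (1.57 to 1.62) in Mus and 1.77-fold (1.73 to 1.82) in Acomys. At least 1.5-fold higher were 17 of 41 core members in Mus (background 23.5%) and 16 of 40 in Acomys (background 23.4%), with none at least 1.5-fold lower. These clusters were singled out after the levels had been seen, and the clustering used all variable genes.

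Genes of the core particle made up most of these members. At least 1.5-fold higher in the sebocyte-like cluster were 6 of 7 alpha and 5 of 7 beta subunit genes in Mus and 7 of 7 and 5 of 7 in Acomys, against 1 of 6 and 0 of 6 ATPase genes and 2 of 11 non-ATPase genes in each. Psma7 had 1511 CPM there and 661 CPM in the other epithelial-like cells of Mus, and 3765 and 1188 CPM in Acomys. Psmb3, a structural beta subunit, had 1441 and 707 CPM in Mus and 2767 and 905 CPM in Acomys. Pomp, the maturation protein of the core particle and no member of the family, was 2.10-fold higher in Mus and 2.09-fold in Acomys. Nfe2l1, the factor known for driving proteasome genes, was 2.35-fold (1.95 to 2.80) higher in Mus. In Acomys it was 1.91-fold (1.09 to 3.12) higher, on 16 UMIs. Pomp and Nfe2l1 are single members of wider lists. Of the proteasome-bound proteins, 3 of 7 measured in Mus and 4 of 7 in Acomys were at least 1.5-fold higher, and 0 and 1 lower. Of the control genes, 3 of 6 in Mus and 2 of 5 in Acomys were higher, and 1 was lower in each. Of all genes, 23.5% and 23.4% were higher. Whether either gene bears on the core level was not tested.

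The immunoproteasome genes differed from each other in this cluster. Psmb9 had 6.46 CPM in the Mus sebocyte-like cluster (6 UMIs), the lowest of the 17 epithelial-like clusters, and made up 0.552% of the UMIs of Psmb9 and Psmb6. Psmb8 stood at 22.6 CPM there against 107 CPM over all epithelial-like cells. Psme2 went the other way in Mus, with 2136 CPM in that cluster against 447 CPM over all epithelial-like cells, and Psme1 had 488 against 231 CPM. Psmb10 had 70.0 CPM there (65 UMIs), 1.67-fold (1.29 to 2.14) the other epithelial-like cells. In Acomys the sebocyte-like cluster held 13 UMIs of Psmb9 and 7 of Psmb10, at 0.614 and 0.612 times the other epithelial-like cells, with intervals that take in 1. Between libraries the cluster's Psmb9 ratio was 7.64 (2.71 to 24.5) on these few UMIs.

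Pooled, epithelial-like clusters with cell cycle genes had 13078 CPM of core members against 11782 CPM in the others in Mus, and 15253 against 13863 CPM in Acomys, with a spread between the single clusters. The cluster with the highest summed Cdc20, Cenpa and Ccnb1, genes of mitosis, was a Mus cluster of 360 cells led by histone genes and Top2a, with 12226 CPM of core members, 1.02-fold the other epithelial-like cells, and 0 of 41 members at least 1.5-fold higher (background 21.1%). In Acomys it was a cluster of 168 cells led by Ccnb1, Ccnb2 and Cdc20, with 16750 CPM, 1.21-fold (1.19 to 1.23) the others, and 2 of 41 members, Psma5 and Psmd5, at least 1.5-fold higher (background 20.1%). This choice of cluster decides the Mus value. A sum of Cenpa, Cdc20, Pttg1 and Ccnb2 picked the same clusters. The mean log level of Cenpa and Cdc20 instead picked a Mus cluster of 215 cells with 15800 CPM, 1.34-fold the others. In it 8 of 41 members were at least 1.5-fold higher, with no share of all genes given. Its leading genes Cenpa, Cdc20, Pttg1, Ccnb2 and Ccnb1 were also leading genes of the Acomys cluster of 168 cells. The 1.02-fold and 1.21-fold values above are thus of clusters with different leading genes. All 3 rules were tried after the levels were known, and the first one tried is the one reported. The remaining clusters with cycle genes had 11049 CPM (led by E2f1 and Mcm5, 226 cells) and 12833 CPM (182 cells) in Mus and 14186 CPM (led by Top2a, 172 cells) in Acomys.

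**Figure D4:**
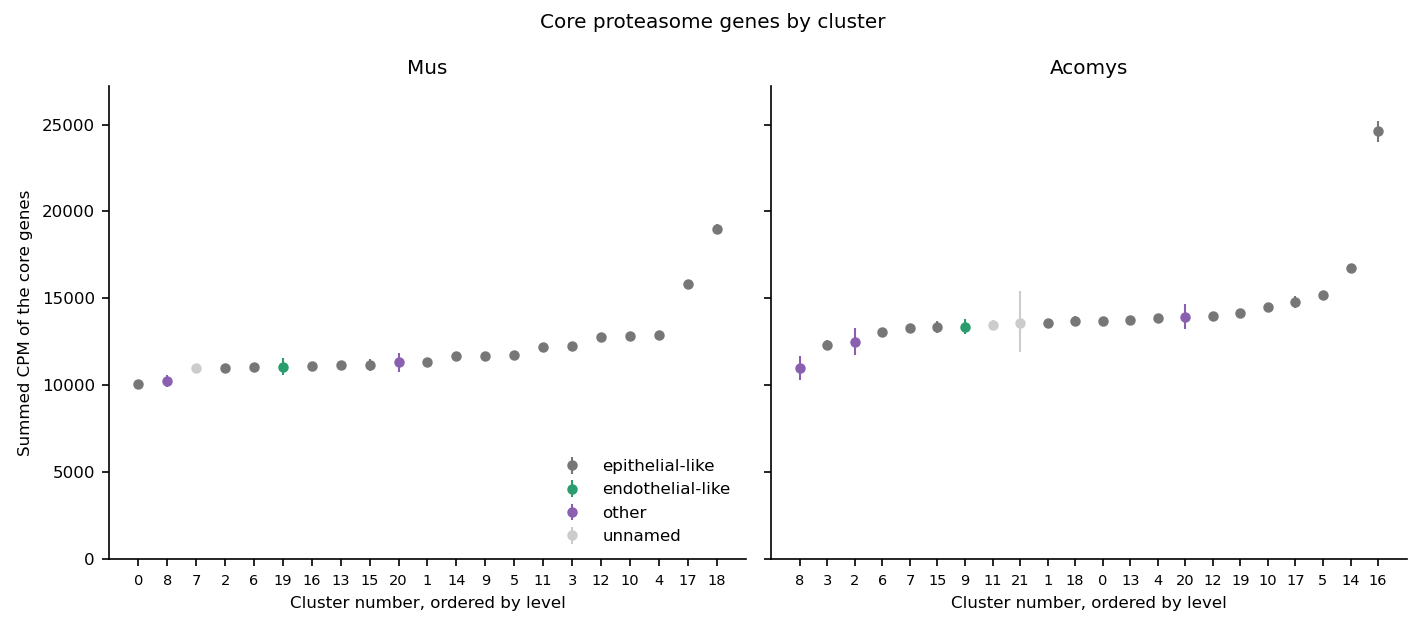
Summed CPM of the 43 core members in each cluster (linear axis from 0), clusters ordered by level within each library, coloured by class, with 95% counting intervals as bars. The sebocyte-like clusters, number 18 in Mus and 16 in Acomys, lie highest at 18974 and 24611 CPM, and the endothelial-like clusters, number 19 in Mus and 9 in Acomys, lie among the others at 11066 and 13379 CPM.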

How the data were processed

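Single cells of ear skin were measured by droplet sequencing of transcript ends in 2 libraries, 1 per species. The authors deposited raw UMI counts per gene and barcode for all 737280 barcodes. They were made with Cell Ranger 2.2.0, and the build named is mm10, per the submitters' processing notes. The Acomys list holds gene names of another annotation, whose build the sources used here do not give. Totals were 130039670 UMIs in Mus and 71042559 in Acomys, and cells held 69.3% and 55.6% of them.

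A barcode was kept as a cell from a UMI minimum of 4695 in Mus and 2872 in Acomys, which is 10% of the depth ranked at percentile 99 among the top 3000 barcodes, with at least 200 genes and, in Mus, at most 20% mitochondrial UMIs. The highest doublet scores were removed at 0.8% per 1000 cells (386 Mus, 183 Acomys). Each library was clustered by itself (scanpy 1.11.5, Leiden, resolution 1). Clusters took a name from at least 3 markers seen in at least 20% of cells at 1.5 times the mean of other clusters. A name was withheld where leading genes favoured another type, a check of subtypes that was added after values were seen. UMIs were summed per class and given as CPM over shared symbols. Intervals are exact Poisson, or exact binomial for ratios and shares, except for ratios of ratios, which use a log-normal approximation. With 1 library per group no test was run. A call is a 2-fold ratio (1.5-fold for single clusters, set after values were seen) with 0.5 counts added, among genes of at least 10 CPM on average. The script was tested on simulated data.

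All members may be named. Given in full are the immunoproteasome genes and their 3 counterparts. In each role the highest and lowest species ratio among epithelial-like cells are named, with every member at least 4-fold apart and up to 4 genes of each other list. Members and lists were chosen with earlier results of these data known. The sebocyte and mitotic clusters, 3 rules for the mitotic one, the genes within the core range and the sum of Psmb9 with its neighbours were added after seeing the data. Alternatives covered cell calling, doublets, clustering, scaling, filters and free RNA. The count and median between species of the ubiquitin shuttle and segregase list are not reported here.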

Additional observations from a re-analysis of the deposited data

How the results depend on the processing

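Direction was kept in all but 1 of the class and cluster results under the alternatives run, but counting intervals are so narrow that many values moved past them. Endothelial-like cells were few in Mus (43), and the Mus endothelial Psmb9 and Psmb10 values rest on 17 and 26 UMIs. No paired analysis was possible because each species has 1 library.

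Core members at least 2-fold lower in Acomys fell from 2 to 1 under CPM over all genes and under a mean of at least 50 CPM. The Acomys to Mus ratio in epithelial-like cells (1.16 for the core sum and 1.35 for Psmb9 and Psmb10 summed) became, for the core, 1.18 with a minimum of 1000 UMIs, 1.156 without doublet removal, 1.17 at resolution 0.5, 1.184 at resolution 2, 1.21 without ribosomal protein genes, 1.26 under CPM over all genes, 1.15 with free RNA subtracted and 1.20 as a mean over cells. For the immunoproteasome pair it became 1.29 at resolution 0.5, 1.46 under CPM over all genes, 1.24 as a mean over cells and 1.46 over all cells of the library.

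The endothelial-like to epithelial-like ratio of the pair, 2.79 in Mus and 8.15 in Acomys, became in Acomys 10.2 with 1000 UMIs, 6.80 without doublet removal, 9.71 at resolution 0.5, 9.36 with free RNA subtracted and 9.90 as a mean over cells. That of the core became 0.819 in Mus and 0.887 in Acomys when centred on the median ratio, 0.859 in Mus without ribosomal protein genes and 0.925 in Acomys under CPM over all genes.

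The following were added after seeing the data. The sebocyte cluster ratio in Mus (1.59) became 1.37 with 1000 UMIs, 1.56 without doublet removal, 1.62 at resolution 2, 1.54 centred, 1.48 without ribosomal protein genes, 1.65 under CPM over all genes and 1.67 with free RNA subtracted. In Acomys (1.77) it became 1.49 with 1000 UMIs, 1.49 without doublet removal, 1.66 without ribosomal protein genes and 1.88 with free RNA subtracted. The mitotic cluster ratio in Mus (1.02) reversed to 0.936 when centred on the median ratio, and became 1.05 with 1000 UMIs, 1.19 without doublet removal, 1.22 with a mitochondrial limit of 10%, 1.07 at resolution 2 and 1.04 as a mean over cells. In Acomys (1.21) it became 1.09 with 1000 UMIs, 1.10 at resolution 0.5, 1.07 centred, 1.17 under CPM over all genes and 1.23 with free RNA subtracted. The causes of these shifts were not tested.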
